A study of Mus musculus with 6 samples.

Results

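The genes encoding the nuclear subunits and assembly factors of respiratory complex I were examined in mouse liver. Members were the protein-coding genes whose symbol in the GENCODE M21 annotation starts with Nduf, which gave 46 of the 54532 Ensembl genes listed, and all 46 passed the filter on low counts and were tested among 12795 genes. Liver RNA came from male C57BL/6J mice, labelled WT for genotype, that entered at 8 weeks of age and received a high-fat diet for 4 weeks. The HFD group (3 libraries, replicates 1 to 3) then stayed on this diet for another 4 weeks without allantoin, and the HFD+Allantoin-H group (3 libraries, replicates 4 to 6) stayed on it for the same 4 weeks with allantoin, an end product of uric acid oxidation in mice, in the drinking water. The dose of 0.3 mg/mL is the high dose of the paper, since the labels list a lower dose beside it and tie neither to a library. All libraries therefore carried the high-fat diet, no library from chow-fed mice was analysed here, and no batch or collection date is given. The comparison asks how hepatic expression of these genes differed with allantoin supplementation under the diet.

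Complex I is the largest enzyme of the respiratory chain. It takes electrons from NADH, passes them along a chain of iron-sulfur clusters in an arm that reaches into the mitochondrial matrix, hands them to ubiquinone, and pumps protons through an arm in the inner membrane. A conserved set of core subunits carries out this catalysis. The hydrophobic core subunits are encoded by the mitochondrial chromosome (the mt-Nd genes) and the remaining ones by nuclear genes, while a shell of accessory subunits, all nuclear, surrounds and stabilises the core. Assembly factors, among them those with Ndufaf symbols, help to build the complex and are not part of the finished enzyme. In the liver, NADH from fatty acid oxidation and the citric acid cycle feeds electrons into complex I.

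The 46 genes fell into 7 nuclear core subunits, 29 accessory subunits, 8 Ndufaf assembly factors, and 2 genes named Nduf that are not complex I subunits (Ndufa4, now assigned to complex IV, and its relative Ndufa4l2). A further 5 genes with an Nduf symbol are annotated as pseudogenes or as a noncoding RNA and were left out. Libraries held 11326372 to 14601457 counts. Levels are given as CPM, counts scaled to a common library size with TMM factors, in which the libraries' totals are adjusted so that most genes do not differ; the TMM factors were 0.756 to 0.951 in HFD and 1.12 to 1.19 in HFD+Allantoin-H. The mitochondrial chromosome held 36.5% of counts in HFD replicate 1, which stood apart, 17.9% and 20.2% in the other HFD libraries, and between 6.92% and 11.4% in the supplemented ones. HFD replicate 2 stood apart by adipocyte transcripts, with 520 counts of Adipoq, 498 of Plin1 and 115 of Lep against 0 or 1 in each other library. Counts of calls are therefore also given without each of these libraries. As the scaling factors and the mitochondrial share both differed between the groups, changes of single genes were also computed with other scalings, and shares and ratios within the Nduf genes, which do not depend on scaling, are given beside them.

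Of the 46 Nduf genes, 27 were lower, 1 was higher and 18 were not called in HFD+Allantoin-H compared with HFD (edgeR quasi-likelihood test, Benjamini-Hochberg adjusted p under 0.05 over all genes tested). Among all genes tested, 13.0% were called lower and 11.3% higher. The fitted log2 fold change (HFD+Allantoin-H over HFD throughout) was below 0 in 42 members (30 when libraries were scaled by their totals only), with a median of -0.62 against -0.03 over all genes tested. In 31 members each HFD+Allantoin-H library lay below each HFD library in CPM, and in 1 member each lay above, where the corresponding shares of all genes were 21.9% and 22.4%. Without HFD replicate 1, 28 members were lower, beside 10.2% of all genes, and without HFD replicate 2, 22 were lower, beside 12.5%. The count was 17 without HFD+Allantoin-H replicate 4 and also 17 without replicate 5, in fits that called 5.29% and 4.27% of all genes lower. With libraries scaled by their totals only, 10 members were lower and the median was -0.20, while 5.27% of all genes were called lower, 24.7% were called higher, and the median of all genes tested moved to 0.38. The distance between the members' median and that of all genes was -0.59 with TMM and -0.58 with totals only. A change of scaling moves the estimates of all genes by nearly the same amount, so this distance could hardly change and does not test the scaling.

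**Figure D1:**
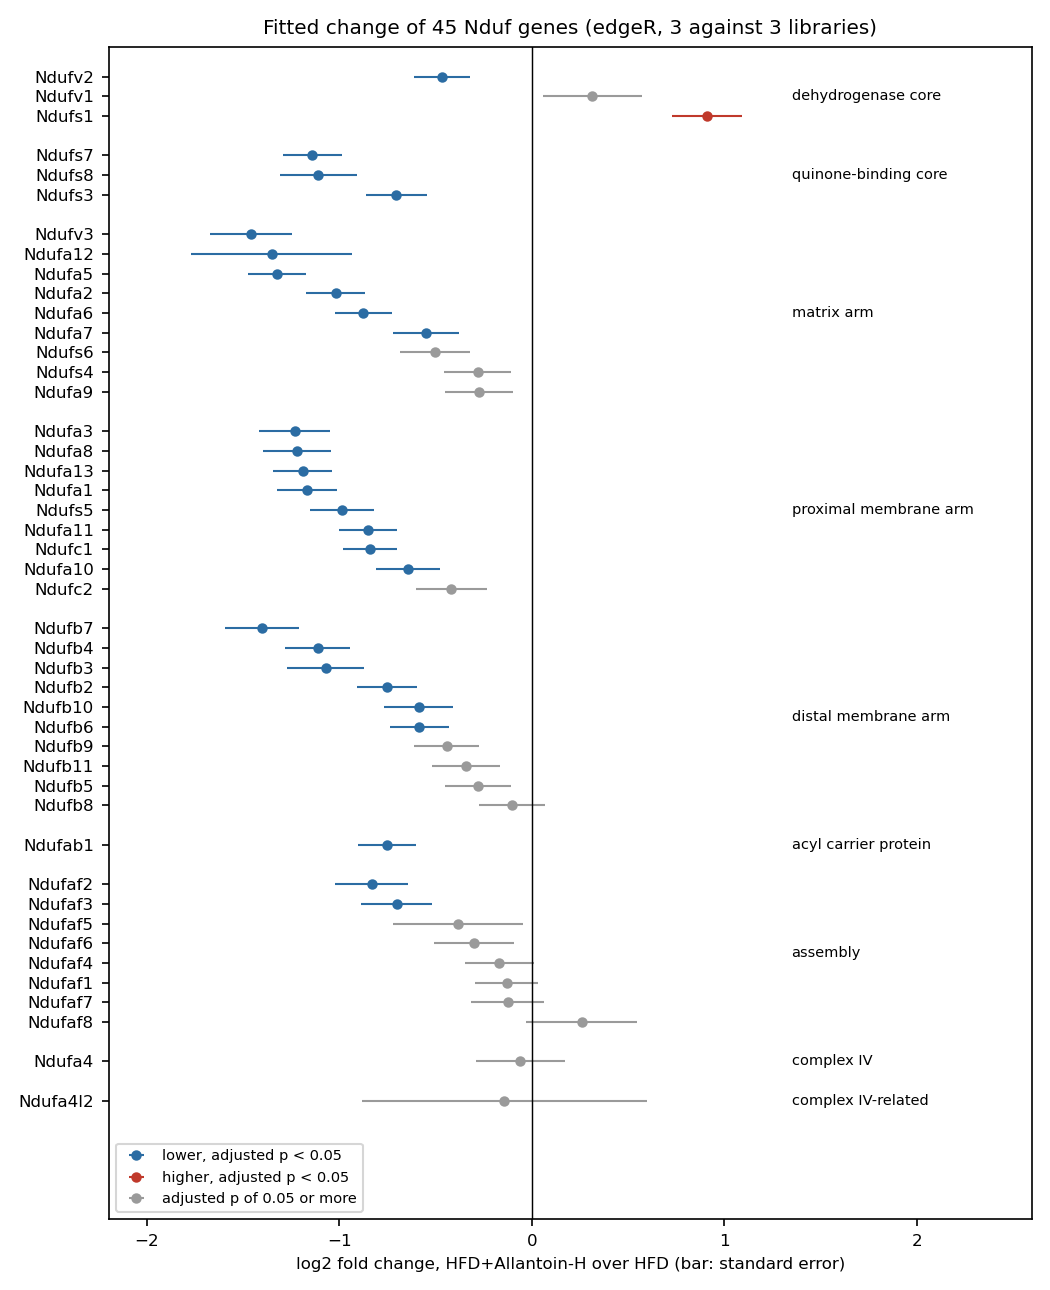
Fitted log2 fold change (x axis, HFD+Allantoin-H over HFD) of 45 Nduf genes, grouped by class, with points for the estimate, bars for its standard error and colours for the call at an adjusted p of 0.05 (edgeR). All 29 accessory subunits lie left of 0, while Ndufs1 lies to the right at 0.91.

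Accessory subunits were lower in 21 of 29 genes, the median log2 fold change being -0.84, and all 29 estimates were below 0 with TMM scaling, 24 with totals only and 23 with the length and GC trend described further on removed. Core subunits were lower in 4 of 7 genes and higher in 1, with a median of -0.47. Assembly factors were lower in 2 of 8 genes, a count close to the 13.0% of all genes tested that were called lower, with a median of -0.23. With totals only as scaling, the accessory median was -0.42, the core median -0.05, and the assembly median turned to 0.18. The difference between classes was not tested, and members of a class are not replicates.

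The core subunits went in opposite directions within the same complex. Ndufs1 (ENSMUSG00000025968, GRCm38 chromosome 1, 63143596 to 63176833, - strand) encodes the largest subunit of the complex, which holds iron-sulfur clusters close to the NADH-oxidising end. Its level was 42.1, 56.9 and 52.8 CPM in HFD, against 82.4, 96.2 and 107 CPM in HFD+Allantoin-H. The groups did not overlap, and the mean rose from 50.6 ± 7.62 to 95.2 ± 12.3 CPM (SD, n = 3 each). Ndufs1 was 1.88-fold higher (log2 fold change 0.91, standard error 0.18, edgeR adjusted p = 0.00938) and was the only Nduf gene called higher. It stayed called in each of the 15 alternatives that give a value per gene, with log2 fold changes of 0.79 to 1.31. The largest edgeR adjusted p was 0.0491, without HFD+Allantoin-H replicate 5. Its estimate did not reach the cut of an absolute log2 fold change above 1, under which no member was higher. A noncoding gene on the opposite strand, Ino80dos, shares 489 bases of Ndufs1 exon sequence, 6.05% of it, and the sources used here do not say whether counting used strand.

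The other nuclear core subunits of the NADH dehydrogenase module are Ndufv1, which binds NADH and the flavin, and Ndufv2, which holds an iron-sulfur cluster beside it. Ndufv1 was at 60.2, 119 and 114 CPM in HFD and at 136, 123 and 106 CPM in HFD+Allantoin-H. HFD replicate 1 was the low one, and the remaining HFD libraries overlapped with the supplemented group. Its log2 fold change of 0.31 (standard error 0.26) was not called (edgeR adjusted p = 0.398) and came to 0.06 without HFD replicate 1. Ndufv2 was at 147, 160 and 150 CPM in HFD and at 109, 107 and 114 CPM in HFD+Allantoin-H, without overlap. It fell by 0.47 on the log2 scale (standard error 0.15, edgeR adjusted p = 0.0456), close to the threshold. It was no longer called when any of HFD replicates 2 and 3 and HFD+Allantoin-H replicates 4 to 6 was left out (edgeR adjusted p of 0.104, 0.0506, 0.162, 0.173 and 0.112), nor with totals only (log2 fold change -0.054, 0.856), upper-quartile scaling (0.0553) or no filter on low counts (0.189).

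The quinone module brings electrons to ubiquinone. Ndufs7, which holds the last iron-sulfur cluster of the chain (ENSMUSG00000020153, chromosome 10, 80249121 to 80256794, + strand), was at 139, 130 and 128 CPM in HFD and at 65.4, 60.6 and 54.3 CPM in HFD+Allantoin-H. Ndufs8, a ferredoxin-like subunit (ENSMUSG00000059734, chromosome 19, 3908863 to 3912774, - strand), was at 188, 186 and 126 CPM in HFD and at 68.6, 76.7 and 86.5 CPM in HFD+Allantoin-H. Both were clearly separated between groups, although HFD replicate 3 was lower in Ndufs8 than the other HFD libraries. Ndufs7 was 2.21-fold lower (log2 fold change -1.14, standard error 0.15, edgeR adjusted p = 0.00348) and Ndufs8 2.16-fold lower (-1.11, standard error 0.20, adjusted p = 0.00686), and both stayed called in each of the 15 alternatives. Ndufs3, a matrix-facing subunit of this module, fell from 119, 151 and 134 CPM to 87.0, 79.9 and 80.7 CPM (log2 fold change -0.70, standard error 0.16, edgeR adjusted p = 0.0148). The groups did not overlap, but it was no longer called when HFD+Allantoin-H replicate 4, 5 or 6 was left out (adjusted p of 0.0614, 0.0807 and 0.0614), with totals only (-0.30, 0.326) or with the length and GC trend removed (-0.35, 0.0950), and a processed pseudogene, Gm12251, matches its transcript at 98.6% over 792 bases.

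**Figure D2:**
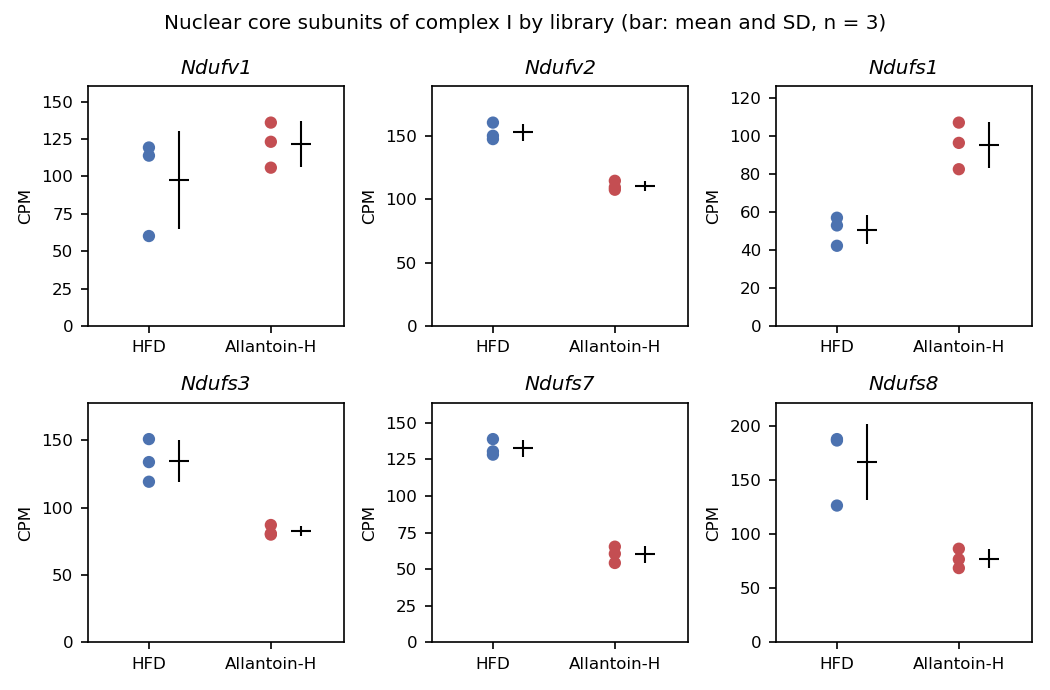
CPM (y axis, from 0) of 6 nuclear core subunits in each library, with 1 point per library and the mean and SD of 3 libraries beside the points. Ndufs1 rises and Ndufs7 and Ndufs8 fall without overlap, while Ndufv1 overlaps between groups.

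Ratios of counts within a library do not depend on the scaling. The ratio of Ndufs1 to Ndufs8 counts was 0.225, 0.305 and 0.418 in HFD and 1.20, 1.25 and 1.24 in HFD+Allantoin-H, so that Ndufs1 passed from the smaller to the larger of the pair in each supplemented library. This pair joins the member called higher with one called lower, so its ratio restates those calls and is no separate test. The ratio of Ndufv1 to Ndufv2 rose from 0.637 ± 0.199 to 1.11 ± 0.163 (SD, n = 3 each). Neither ratio overlapped between the groups, although the ratio moves with either gene and does not say which of them changed. Nor are ratios freed of the length trend described further on, and transcripts of Ndufs1 and Ndufs8 have 2661 and 1005 bases. Per kilobase of transcript, the core subunits described above spanned in HFD from 19.0 CPM for Ndufs1, the lowest, over 58.9 for Ndufv1, 89.9 for Ndufv2, 129 for Ndufs3 and 135 for Ndufs7 to 166 for Ndufs8. In HFD+Allantoin-H the order was Ndufs1 at 35.8, Ndufs7 at 61.1, Ndufv2 at 65.1, Ndufv1 at 73.3, Ndufs8 at 76.9 and Ndufs3 at 78.9 CPM per kilobase, so that the levels lay closer together and Ndufs7 moved from the second highest to the second lowest. Neighbours in these orders were not tested against each other.

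Accessory subunits of the matrix arm were lower in 6 of 9 genes, with a median log2 fold change of -0.88. The 4 with the smallest p were Ndufa5, Ndufv3, Ndufa2 and Ndufa6. Ndufa5, a small subunit on the side of the arm, was at 115, 100.4 and 100.8 CPM in HFD and at 43.1, 39.7 and 43.3 CPM in HFD+Allantoin-H (log2 fold change -1.33, standard error 0.15, edgeR adjusted p = 0.00242). Ndufv3, an accessory subunit beside Ndufv1 and Ndufv2, was at 144, 118 and 94.0 CPM against 50.9, 35.4 and 43.1 CPM (-1.46, standard error 0.21, adjusted p = 0.00396), the largest estimated decrease among the members. In both genes the lowest HFD library lay above the highest supplemented one by a wide margin. Ndufa2, a subunit with a thioredoxin-like fold, was at 145, 170 and 147 CPM against 81.1, 71.8 and 74.9 CPM (-1.02, edgeR adjusted p = 0.00423). Ndufa6, a subunit of the LYR motif family that binds acyl carrier protein, was at 189, 205 and 187 CPM against 110, 104 and 103 CPM (-0.88, edgeR adjusted p = 0.00537). Leaving out any library kept these 4 calls, but scaling by totals only ended those of Ndufa2 (edgeR adjusted p = 0.0524) and Ndufa6 (0.109), and removing the length and GC trend ended that of Ndufa6 (0.122). Ndufa7 and Ndufa12 were also called lower at edgeR adjusted p of 0.0481 and 0.0448, and Ndufa7 lost its call when HFD replicate 2 or HFD+Allantoin-H replicate 4, 5 or 6 was left out (0.128, 0.129, 0.127 and 0.166), with totals only (-0.14, 0.670), with upper-quartile scaling (0.0583) and with no filter (0.0903). Ndufa12, named after its values were seen, was at 27.1, 23.5 and 49.5 CPM in HFD and at 8.43, 22.1 and 8.64 CPM in HFD+Allantoin-H, the most scattered of the called members, and lost its call when any of HFD replicates 1 and 3 and HFD+Allantoin-H replicates 4 and 6 was left out (edgeR adjusted p of 0.0628, 0.0889, 0.146 and 0.145), with totals only (0.120) and with the length and GC trend removed (0.111). Ndufa9, Ndufs4 and Ndufs6 had estimates of -0.28, -0.28 and -0.50 and were not called.

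The accessory subunits at the start of the membrane arm, next to the matrix arm, were lower in 8 of 9 genes, the highest count of the subunit groups, with a median log2 fold change of -0.99. In all 9 the supplemented libraries lay below the HFD libraries. The 4 with the smallest p were Ndufa13, Ndufa1, Ndufa8 and Ndufa3. Ndufa13, also known as GRIM-19, was at 152, 164 and 142 CPM in HFD and at 61.9, 71.3 and 67.0 CPM in HFD+Allantoin-H (log2 fold change -1.19, standard error 0.15, edgeR adjusted p = 0.00319). Its exons overlap those of Tssk6 on the opposite strand over 375 bases, 30.0% of its exon sequence. Ndufa1, a small X-linked membrane subunit, was at 80.0, 95.2 and 99.0 CPM against 41.3, 38.7 and 42.0 CPM (-1.17, edgeR adjusted p = 0.00348). Ndufa8, a cysteine-rich subunit on the intermembrane-space face, was at 155, 125 and 112 CPM against 60.8, 53.7 and 54.1 CPM (-1.22, edgeR adjusted p = 0.00396). Ndufa3 was at 108, 92.4 and 77.9 CPM against 36.6, 36.4 and 45.6 CPM (-1.23, edgeR adjusted p = 0.00403). None of the 4 genes had overlapping groups, and these calls held in each of the 15 alternatives. Ndufs5, Ndufa11, Ndufc1 and Ndufa10 were also called lower, with estimates of -0.99, -0.85, -0.84 and -0.65. Ndufa10 was not called when HFD+Allantoin-H replicate 4 or 5 was left out (edgeR adjusted p of 0.0987 and 0.123), none of these genes was called with totals only (0.0589, 0.112, 0.0985 and 0.405), and Ndufa11 was not called with the length and GC trend removed (0.774). Ndufc2 (-0.42, edgeR adjusted p = 0.128) was not called.

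The distal end of the membrane arm had 6 of 10 genes lower and a median log2 fold change of -0.59. Ndufb7, a cysteine-rich subunit on the intermembrane-space face, was at 136, 92.3 and 104 CPM in HFD and at 46.3, 41.5 and 37.9 CPM in HFD+Allantoin-H (log2 fold change -1.40, standard error 0.19, edgeR adjusted p = 0.00352). Ndufb4 was at 133, 120 and 97.8 CPM against 56.1, 50.5 and 55.3 CPM (-1.11, edgeR adjusted p = 0.00423). Neither gene had overlapping groups. The pseudogene Ndufb4c matches Ndufb4 at 100% over 390 bases and was itself at 2.59 ± 1.10 CPM in HFD and 1.30 ± 0.865 CPM in HFD+Allantoin-H (SD, n = 3 each). Ndufb3 fell by 1.07 on the log2 scale (edgeR adjusted p = 0.00786) and Ndufb2 by 0.75 (0.0107), neither called with totals only (0.0582 and 0.185). Ndufb2 was not called in the absence of HFD+Allantoin-H replicate 4 or 5 (adjusted p of 0.0562 and 0.0650). Ndufb6 and Ndufb10 were called lower with estimates of -0.58 and -0.59, neither called with totals only (-0.17 and -0.16, edgeR adjusted p of 0.561 and 0.606), with no filter (0.0623 and 0.0630) or with the length and GC trend removed (0.512 and 0.898). Ndufb6 also lost its call without HFD replicate 2 (0.0561) or HFD+Allantoin-H replicate 4, 5 or 6 (0.0670, 0.112 and 0.109), and Ndufb10 without HFD replicate 1 or 2 (0.0672 and 0.0813) or HFD+Allantoin-H replicate 4, 5 or 6 (0.0562, 0.152 and 0.150). Ndufb5, Ndufb8, Ndufb9 and Ndufb11 were not called, and Ndufb8 was nearest to 0 at -0.10, with 43.8, 58.7 and 50.9 CPM in HFD and 50.4, 50.5 and 41.9 CPM in HFD+Allantoin-H. Ndufab1, the mitochondrial acyl carrier protein, which sits at both arms of the complex and also serves fatty acid and lipoic acid synthesis, went from 48.9, 54.7 and 49.5 CPM to 32.5, 30.7 and 27.5 CPM without overlap. It was lower (-0.75, edgeR adjusted p = 0.00981) but not called without HFD+Allantoin-H replicate 5 or 6 (adjusted p of 0.0554 and 0.0510) or with totals only (-0.34, 0.224).

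**Figure D3:**
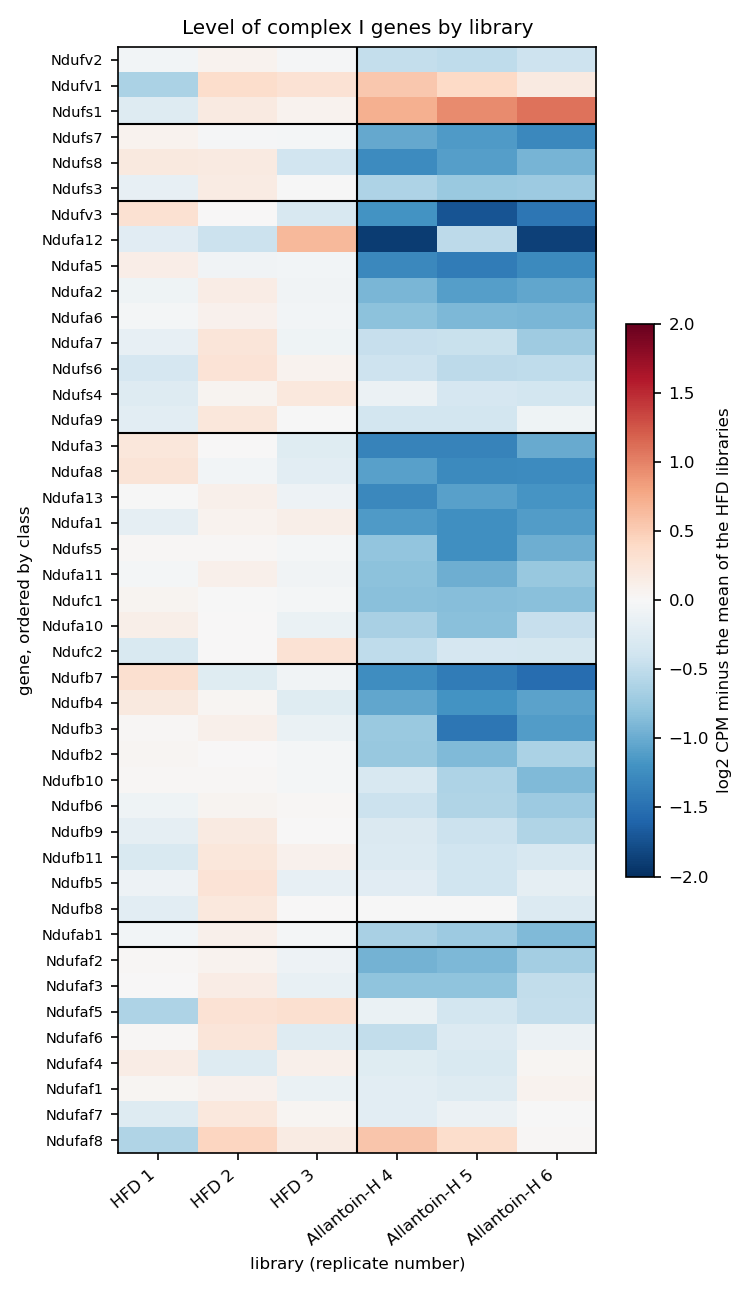
Level of 43 complex I genes in each library as log2 CPM minus the mean of the HFD libraries (colour scale from -2 to 2), with black lines between classes. Most accessory rows are blue in all 3 HFD+Allantoin-H libraries, while the Ndufs1 row is red.

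Of the 8 assembly factors, Ndufaf2 and Ndufaf3 were called lower, beside 13.0% of all genes tested. With 8 genes, a count of 2 is close to that share. Ndufaf2, a chaperone of late assembly related to Ndufa12, was at 15.0, 15.4 and 13.6 CPM in HFD and at 7.62, 7.87 and 9.18 CPM in HFD+Allantoin-H (log2 fold change -0.83, standard error 0.19, edgeR adjusted p = 0.0148). Ndufaf3, which acts early with Ndufaf4 on the quinone module, was at 18.6, 20.5 and 16.6 CPM against 10.6, 10.6 and 13.1 CPM (-0.70, standard error 0.19, edgeR adjusted p = 0.0262). The groups did not overlap in either gene. Neither call held without HFD+Allantoin-H replicate 4 (adjusted p of 0.0740 and 0.110) or replicate 5 (0.0766 and 0.115), and that of Ndufaf3 was also lost without HFD replicate 2 (0.0595). With totals only they were at -0.42 and -0.29 (0.144 and 0.302), and with the length and GC trend removed at -0.41 and -0.39 (0.132 and 0.144), in neither case called. For Ndufaf2, 65.6% of the exon sequence is shared with a noncoding gene on the opposite strand, B230220B15Rik, so its counts could not be assigned with certainty.

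The remaining 6 assembly factors had overlapping groups and no call. Ndufaf1, which works with Ecsit and Acad9 on the membrane arm, was at 26.2, 27.0 and 23.3 CPM in HFD and at 21.9, 21.2 and 26.7 CPM in HFD+Allantoin-H (log2 fold change -0.13, standard error 0.17). Ndufaf4 (-0.17, standard error 0.18), Ndufaf6 (-0.30, standard error 0.21) and Ndufaf7 (-0.13, standard error 0.19), a methyltransferase, had estimates of similar size. Ndufaf5, which hydroxylates Ndufs7, was at 2.95, 5.53 and 5.60 CPM against 4.11, 3.49 and 3.24 CPM (-0.38, standard error 0.34). Its partner Ndufaf8 was at 5.68, 11.7 and 9.70 CPM against 12.6, 11.1 and 8.77 CPM, and was, with TMM scaling, the only assembly factor with an estimate above 0 (0.26, standard error 0.29). The edgeR adjusted p of these 6 genes ranged from 0.319 for Ndufaf6 to 0.663 for Ndufaf7, and standard errors of this size leave room for changes of moderate size.

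Both Nduf genes outside complex I had overlapping groups. Ndufa4 was at 165, 293 and 297 CPM in HFD and at 249, 229 and 247 CPM in HFD+Allantoin-H, with HFD replicate 1 again the low one (log2 fold change -0.06, standard error 0.23, edgeR adjusted p = 0.877), and at -0.29 without that library. Per kilobase of transcript Ndufa4 had the highest level of the 46 genes in HFD, 413 CPM, followed by Ndufa6 at 328 and Ndufa2 at 269 CPM. Ndufa4l2 was at 0.655, 1.88 and 0.167 CPM against 1.03, 0.651 and 0.742 CPM, too low for a precise estimate (-0.14, standard error 0.74, edgeR adjusted p = 0.907).

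The division of counts among the Nduf genes shifted between classes, and this measure is free of library scaling. Core subunits held 21.9% ± 0.858 of the counts of the 46 genes in HFD and 27.2% ± 0.590 in HFD+Allantoin-H (SD, n = 3 each). Accessory subunits held 68.6% ± 2.32 and 59.8% ± 0.581, and assembly factors 3.27% ± 0.0703 and 4.09% ± 0.354. None of these shares overlapped between the groups. Within the core, the dehydrogenase module of Ndufs1, Ndufv1 and Ndufv2 went from 6.43%, 7.72% and 7.93% to 11.7%, 12.4% and 12.1%, while the quinone module was at 14.6% ± 0.529 and 15.1% ± 0.327 with overlapping libraries. The accessory subunits at the start of the membrane arm went from 21.6% ± 1.62 to 16.7% ± 0.809 and those of the matrix arm from 23.8% ± 0.146 to 20.6% ± 0.146, both without overlap, and those of the distal membrane arm from 22.0% ± 0.570 to 21.4% ± 1.13, with overlap. A share rises when the other classes fall, so these values describe proportions and not levels. They are not freed of the length trend described further on. Median transcript length was 763 bases for accessory, 1623 for core and 1308.5 for assembly genes. The part of length in these shares was not tested.

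**Figure D4:**
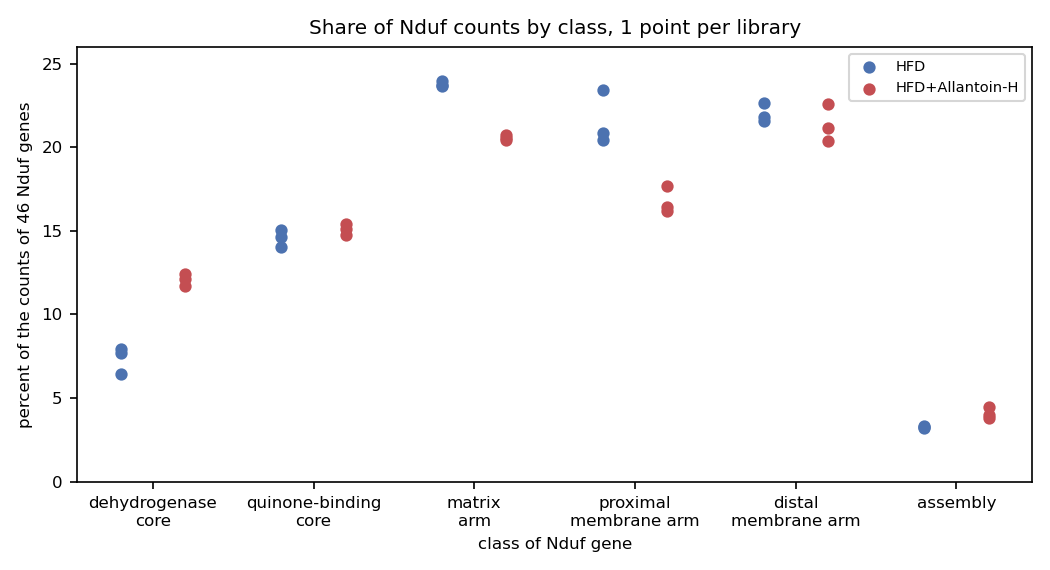
Percent of the counts of 46 Nduf genes (y axis, from 0) held by 6 classes in each library, with 1 point per library. The dehydrogenase core sits at 6.43% to 7.93% in HFD and at 11.7% to 12.4% in HFD+Allantoin-H, while the matrix arm and the proximal membrane arm are lower in HFD+Allantoin-H.

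Summed over the 46 genes, the level was 4079 ± 252 CPM in HFD and 2713 ± 86.5 CPM in HFD+Allantoin-H (SD, n = 3 each), a ratio of 0.665. Without TMM scaling the genes took 3542 ± 535 CPM of the plain library total in HFD, where HFD replicate 1 was lowest at 2927, and 3137 ± 177 in HFD+Allantoin-H, and the groups overlapped. In bulk tissue a smaller number of cells of a type and less RNA per cell cannot be told apart. The summed level of 8 hepatocyte markers was 92007 to 93834 CPM in HFD and 78179 to 105486 CPM in HFD+Allantoin-H, with 2 of 8 called lower and none at 0. Most of this sum was Alb, at 55939 to 62025 CPM in HFD and 54402 to 82145 CPM in HFD+Allantoin-H. The called genes were Apoa1 and Ttr. Among those not called, Tat lay below and Cyp2e1 above the HFD libraries in each supplemented library, and the rest overlapped. Kupffer cell markers were higher in 3 of 6 genes (104 to 245 CPM against 292 to 321 CPM summed) and stellate cell markers in 5 of 6 (107 to 156 CPM against 271 to 312 CPM). Of the markers of sinusoidal endothelium and erythroid cells none was called, and of the cholangiocyte and adipocyte markers 1 each was lower. The summed adipocyte markers were at 354 CPM in HFD replicate 2 and at 48.6 to 132 CPM in the other libraries, where Lep was at 0. The part of these marker changes in the Nduf results was not tested.

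The other genes of the pathway did not all go the same way. The 7 complex I subunits of the mitochondrial chromosome, which form the proton-pumping core, were all called lower, at a median log2 fold change of -2.01. Among them mt-Nd3 was at 513, 663 and 528 CPM in HFD and at 39.4, 94.5 and 52.0 CPM in HFD+Allantoin-H (log2 fold change -3.19, standard error 0.33, edgeR adjusted p = 0.00183). mt-Nd1 and mt-Nd2 had log2 fold changes of -2.04 and -2.01 (adjusted p of 0.00938 and 0.00978), neither called without HFD+Allantoin-H replicate 5 (0.0523 and 0.0539). Of 13 listed assembly factors without an Nduf symbol, 12 were matched to the annotation, of which 1 was lower, 2 were higher and 9 were not called, with a median of 0.06. With 12 genes, counts of 1 and 2 are near the shares over all genes tested, 13.0% lower and 11.3% higher. Nubpl, which delivers iron-sulfur clusters to complex I, was at 2.07, 2.77 and 2.93 CPM in HFD and at 11.1, 12.1 and 10.9 CPM in HFD+Allantoin-H (log2 fold change 2.12, standard error 0.25, edgeR adjusted p = 0.00263). Acad9, an acyl-CoA dehydrogenase family member that serves assembly of the membrane arm, was at 11.5, 14.7 and 11.0 CPM against 25.1, 26.3 and 25.9 CPM (1.06, standard error 0.18, edgeR adjusted p = 0.00542). Both were well separated between groups and called in each alternative run. Ecsit, the partner of Acad9 and Ndufaf1, was at 51.1, 42.6 and 37.5 CPM against 29.3, 26.3 and 25.0 CPM (-0.70, standard error 0.17, edgeR adjusted p = 0.0196), and was not called without HFD+Allantoin-H replicate 4, 5 or 6 (0.0620, 0.0887 and 0.0824), with totals only (-0.27, 0.288) or with the length and GC trend removed (-0.47, 0.0551).

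Nduf genes mostly have short transcripts, and in these libraries the fitted change moved with transcript length over all genes. Among transcripts of up to 1000 bases, 16 of 24 Nduf genes, 66.7%, were lower and their median log2 fold change was -0.84, beside 33.6% of 1198 genes and a median of -0.59 overall. Between 1000 and 2000 bases, 8 of 17 Nduf genes, 47.1%, were lower with a median of -0.38, beside 17.1% of 2759 genes and -0.18 overall. Above 2000 bases, 3 of 5 Nduf genes were lower and 1, Ndufs1, was higher, beside 8.92% lower and 13.8% higher of 8830 genes. The lower ones were Ndufb2, Ndufab1 and Ndufa10, with assigned lengths of 4371, 3479 and 2020 bases. Per kilobase, Ndufb2 and Ndufab1 had the lowest levels of the accessory subunits in HFD, 6.48 and 14.7 CPM. Whether the liver expresses shorter transcripts of these genes was not tested, so their place in this range is uncertain. When the dependence of counts on transcript length and GC content was removed library by library, 18 members were lower, all 18 of them among the 27, beside 10.4% of all genes, the median was -0.29, and 34 estimates were below 0, with medians of -0.55 for accessory subunits, -0.35 for core subunits and -0.12 for assembly factors. No assembly factor was called in that fit, while Ndufs1, Ndufs7 and Ndufs8 were. Ndufa7 turned from -0.55 to 0.14, and among uncalled subunits Ndufb8, Ndufb9, Ndufb11, Ndufs6 and Ndufc2 turned above 0. The part of transcript length in the differences was not tested beyond this fit.

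**Figure D5:**
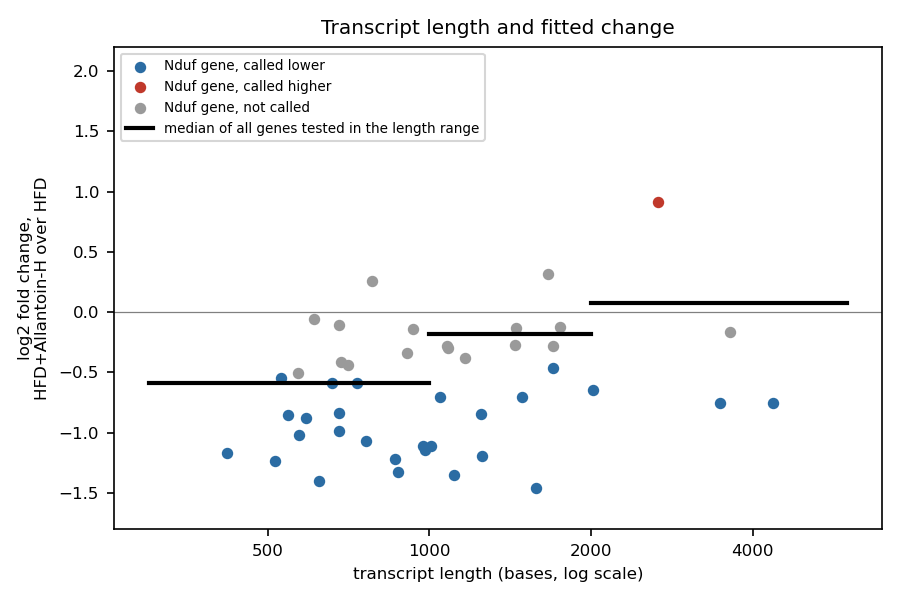
Log2 fold change (y axis, HFD+Allantoin-H over HFD) against transcript length (x axis, log scale) for 45 Nduf genes, coloured by call, with black bars for the median of all genes tested in 3 length ranges (-0.59, -0.18 and 0.07). Most Nduf genes lie below the bar of their range, and Ndufs1 lies above it.

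Counting could also be affected by sequence that members share with other loci. Exons of 19 members overlap those of another gene. For 10 members, an annotated transcript of another locus holds a stretch of at least 200 bases at 95% identity or more. For most of these the other locus is a processed pseudogene. Sequence outside annotated transcripts was not searched. Ndufb6 shares 257 bases, 39.0% of its exon sequence, with Smim27 on the opposite strand. Processed pseudogenes match Ndufa12 at 99.5% over 402 bases (Gm15920) and Ndufab1 at 99.8% over 468 bases (Gm4459). Of the 23 members with neither kind of sharing, 13 were lower and none was higher, with a median log2 fold change of -0.55.

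The promoters of the members were searched for the binding sequences of factors known to drive nuclear respiratory genes. RefSeq windows of 250 bases before to 50 bases after the transcript start (GRCm38.p6) were matched for 40 of the 46 genes, with 42 windows in all. Genes with no window matched included Ndufa2, Ndufa4l2, Ndufaf6, Ndufb9 and Ndufs1. Motifs were read on both strands, each counted apart from the others. The YY1 core AAGATGGC stood in 8 of 42 Nduf windows, 19.0%, and in 2.75% of all 32851 windows. The NRF1 core GCGCATGC stood in 5, or 11.9%, against 2.71% of all windows, the ETS core CCGGAAG bound by GABPA in 6, or 14.3%, against 8.86%, and the estrogen-related receptor sequence CAAGGTCA in 1, or 2.38%, against 1.56%. All 8 YY1 matches were on the sense strand and began at base 11 to 39 counted from the annotated start as base 1, and a sense-strand match anywhere after the start was seen in 0.865% of all windows. This core contains ATG, the letters of a start codon. Whether the matches mark the start of translation rather than a site for YY1 was not tested. The matching stretches of 30 bases are shown because the same letters recur at a similar position in genes of different classes, with the YY1 core in capitals, 5′ to 3′ on the strand of the gene.
Ndufa3 (chr7:3617384-3617413, + strand): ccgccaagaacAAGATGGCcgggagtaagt
Ndufa9 (chr6:126849097-126849126, - strand): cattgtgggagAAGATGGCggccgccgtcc
Ndufaf8 (chr11:120098933-120098962, + strand): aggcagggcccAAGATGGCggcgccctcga
Ndufb8 (chr19:44555393-44555422, - strand): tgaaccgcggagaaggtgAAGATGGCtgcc
Ndufc1 (chr3:51408915-51408944, - strand): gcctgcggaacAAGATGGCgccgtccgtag
Ndufs4 (chr13:114388045-114388074, - strand): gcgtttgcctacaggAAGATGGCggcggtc
Ndufs6 (chr13:73328433-73328462, - strand): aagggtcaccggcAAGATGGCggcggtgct
Ndufs7 (chr10:80249462-80249491, + strand): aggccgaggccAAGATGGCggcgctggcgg

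Of these 8 genes, Ndufa3, Ndufc1 and Ndufs7 were called lower and Ndufa9, Ndufaf8, Ndufb8, Ndufs4 and Ndufs6 were not called. The NRF1 core, in capitals below and read as its reverse complement in Ndufa6 and Ndufa8, began between 113 bases before and base 17 after the start in the stretches shown; its letters nearly form a palindrome, so that matches on both strands can overlap. Ndufa6, Ndufa8 and Ndufa11 were called lower, and the assembly factors Ndufaf4 and Ndufaf5 were not called.
Ndufa6 (chr15:82354356-82354385, - strand): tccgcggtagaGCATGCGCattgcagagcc
Ndufa8 (chr2:36049328-36049357, - strand): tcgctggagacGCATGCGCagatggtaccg
Ndufa11 (chr17:56717691-56717720, + strand): acctgcactgcGCGCATGCgcgcacgcctt
Ndufaf4 (chr4:24897959-24897988, + strand): cccagatgtctGCGCATGCgcctgtgcgga
Ndufaf5 (chr2:140170651-140170680, + strand): tagtcccgttgGCGCATGCgcctaatagaa

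The genes of the factors themselves were mostly not called. Gabpa, which encodes the DNA-binding subunit of the ETS factor GABP, was higher, at 20.7, 27.7 and 30.3 CPM in HFD and 41.6, 43.9 and 42.2 CPM in HFD+Allantoin-H (log2 fold change 0.70, standard error 0.18, edgeR adjusted p = 0.0231), without overlap, and was not called without HFD+Allantoin-H replicate 4, 5 or 6 (0.0743, 0.0906 and 0.0724) or with the length and GC trend removed (0.48, 0.0668). Nrf1 (-0.47), Yy1 (-0.23) and Esrra (-0.29) had adjusted p of 0.195, 0.285 and 0.294. A match of letters in these windows is a description and does not show binding.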

How the data were processed

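Liver RNA was extracted with a column kit (RNeasy) and libraries were made with the SMARTER mRNA-Seq kit. Per the paper and the labels, reads were sequenced on an Illumina HiSeq instrument and filtered. The authors deposited raw read counts per gene, not normalized; the aligner and the counting tool are not given in the sources used here, and the submitters' processing notes name the builds GRCm38 and mm10. Symbols, positions and transcript lengths came from GENCODE M21, in which 54495 of 54532 identifiers were found. Another 429 entries carry no Ensembl identifier, took between 0.197% and 0.306% of the counts and were not used.

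Counts were tested with edgeR 4.0.16 in R 4.3.3 (TMM, filterByExpr, quasi-likelihood test, Benjamini-Hochberg over 12795 genes, two-sided), with group as the term of the model. Standard errors were derived from the F statistic. The labels give 3 libraries per group and do not say from which mouse each came, so p-values measure the spread between these libraries. Length per gene is that of the longest APPRIS-principal transcript. Near-identical stretches were searched among GENCODE M21 transcripts with BLAST 2.17.0. Alternatives were RLE, total-count and upper-quartile scaling, DESeq2 1.42.0, limma-voom (limma 3.58.1), a filter of 10 counts or more in each library or none, leaving out each library, leaving out the mitochondrial chromosome, removing each library's length and GC trend (splines with 5 degrees of freedom) and an absolute log2 fold change above 1. The procedure was tested on simulated data. Members, classes, gene lists, motifs and alternatives were chosen with earlier results of these data known. Named with values were all core and Ndufaf genes, any member called higher, the Nduf genes outside complex I, up to 4 called members with the smallest p per accessory class, and up to 3 called genes per direction among the other pathway genes; single exceptions are marked. Counts, medians and shares cover all members, but 1 member is not reported by name here and is not plotted.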

Additional observations from a re-analysis of the deposited data

How the results depend on the processing

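Ndufs1 stayed higher and Ndufa1, Ndufa3, Ndufa5, Ndufa8, Ndufa13, Ndufb4, Ndufb7, Ndufs7, Ndufs8 and Ndufv3 stayed lower in all 15 alternatives that give a value per gene, so that 10 of the 27 lower calls held throughout. RLE scaling, DESeq2 and limma-voom gave 27 lower members each, beside 12.9%, 15.4% and 12.5% of all genes. Upper-quartile scaling gave 25, beside 12.9%, and no filter 23, beside 9.03%. With totals only, lower calls numbered 10 in all, 2 in core, 8 in accessory and 0 in assembly genes, with medians of -0.20, -0.054, -0.42 and 0.18. Estimates then turned above 0 for Ndufb11 (0.056), Ndufb5 (0.13), Ndufb8 (0.30), Ndufa9 (0.12), Ndufs4 (0.12), Ndufaf1 (0.28), Ndufaf4 (0.25), Ndufaf5 (0.0049), Ndufaf6 (0.12), Ndufaf7 (0.27), Ndufa4 (0.32), Ndufa4l2 (0.27), Yy1 (0.18) and Esrra (0.13). With the length and GC trend removed, assembly factors had 0 lower calls, medians were -0.29 (all), -0.35 (core), -0.55 (accessory) and -0.12 (assembly), and estimates turned above 0 for Ndufb11 (0.023), Ndufb8 (0.48), Ndufb9 (0.13), Ndufa7 (0.14), Ndufs6 (0.16), Ndufc2 (0.027), Ndufa4 (0.36), Ndufa4l2 (0.47) and Esrra (0.020). An absolute log2 fold change above 1 left 13 lower and 0 higher members, with 2 core, 11 accessory and 0 assembly genes lower. The share of all genes beyond that cut was not computed. Leaving out 1 library gave 17 to 28 lower members, 2 to 4 lower core, 15 to 22 lower accessory and 0 to 2 lower assembly genes, and medians of all members from -0.68 to -0.58. The share of all genes called lower in these fits ran from 4.27% to 15.2%. Over the same fits the estimates ran from -0.21 to 0.0076 for Ndufb8, -0.29 to 0.081 for Ndufa4 and -0.66 to 1.01 for Ndufa4l2, turning above 0 without HFD replicate 2, and for Ndufa4 also without HFD replicate 3. With limma-voom, Ndufa4l2 was at 0.38. For the other changes the cause was not tested; a fit without 1 library has fewer samples. No paired analysis was possible because the groups share no replicate numbers. No detection limit was computed, so the genes not called are not shown to be unchanged.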
